A study of Homo sapiens with 48 samples.

Results

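The comparison set untreated CNOT1-AID cells against untreated CNOT4-AID cells, the 2 degron lines of the study, before any auxin had been added. Its members were the 8 untreated steady-state libraries of these lines among the 48 libraries of the series, 4 per line, with 2 at 8 h and 2 at 24 h in each line, and time entered the model as a covariate. All cells were DLD-1, a human colorectal cancer line, and all carried TIR1, the plant receptor that couples auxin to the degradation of tagged proteins. In the CNOT1-AID line an auxin-inducible degron (AID) had been placed at the genomic CNOT1 locus, and in the CNOT4-AID line at the CNOT4 locus. Untreated libraries of the parental line, which has TIR1 and no degron, gave a reference level (2 at 8 h and 2 at 24 h). Total RNA was sequenced after removal of ribosomal RNA, with ERCC spike-in RNA added. A second set gave the same lines after 2 h of 1 mM auxin, as the 0 h point of a triptolide series in which no triptolide had yet been added (2 libraries per line). In that set a difference between the lines and a response to auxin cannot be told apart. The labels do not say whether each line was grown from 1 cell, how many alleles carry the degron, or whether replicates came from separate cultures, so the p-values rest on the spread among the deposited libraries, and that spread may be technical.

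CCR4-NOT is the main cytoplasmic complex that shortens the poly(A) tails of mRNAs, a step that usually comes before their decay. CNOT1 is its scaffold, which holds the deadenylases and the other subunits, and CNOT4 is a RING-type ubiquitin ligase that associates with the complex and is not a stable part of it in human cells. A comparison of untreated lines describes the starting points from which an auxin response would be measured. Protein levels were not analysed here, so whether any tagged protein was already lowered before auxin was not tested.

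Levels are given as TPM, the deposited unit of transcript abundance, in which each gene is corrected for its length and each library has the same total. Differences are log2 of CNOT1-AID over CNOT4-AID after TMM scaling and addition of a pseudocount of 0.5, so a positive value is higher in CNOT1-AID, and a ratio of the printed TPM differs from the fitted fold. Most genes did not differ detectably: of 12794 genes tested, 1450 differed at an adjusted p under 0.05 (limma, Benjamini-Hochberg), which is 11.3%. Of these, 646 (5.05%) were higher in CNOT1-AID and 804 (6.28%) were higher in CNOT4-AID. In deposited TPM, all 4 libraries of 1 line lay beyond all 4 of the other for 3734 genes (29.2%), so a lack of overlap is common here. Of the 1450, 80 differed by at least 2-fold, with 16 higher in CNOT1-AID and 64 higher in CNOT4-AID. Those 64 comprised 28 protein-coding genes, 17 small nucleolar RNAs, 6 small nuclear RNAs, 4 long intergenic RNAs and several pseudogenes, and 12 of the 16 were protein-coding. All 1450 had the same sign at 8 h and at 24 h, which the joint fit favours. The difference between lines passed for 0 genes when it was itself compared between the times (interaction term in limma), with 759 genes at an unadjusted p under 0.05. Without replicate 2 of CNOT1-AID at 8 h that interaction passed for 100 genes. The total of 1450 moved widely with single libraries: without 8 h replicate 1, 8 h replicate 2, 24 h replicate 1 and 24 h replicate 2 of CNOT1-AID in turn it was 2410, 746, 769 and 650. Without the same libraries of CNOT4-AID it was 967, 732, 931 and 778.

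The make-up of the libraries differed between the lines as well. Small nuclear RNAs, the RNA parts of the splicing machinery, held 17.54 to 18.62% of TPM in the CNOT1-AID libraries and 20 to 27.53% in the CNOT4-AID libraries (24.75% ± 3.53 against 18.21% ± 0.464, SD, n = 4; exact permutation test, two-sided, p = 0.0286, the smallest this design can give; 0.0667 after adjustment over 7 classes). Small nucleolar RNAs held 4.079% ± 0.188 in CNOT1-AID and 5.962% ± 0.499 in CNOT4-AID, again with no overlap (exact permutation test, p = 0.0286, adjusted 0.0667, n = 4). Miscellaneous RNA went the other way, with 22.34% ± 1.39 in CNOT1-AID and 19.13% ± 1.32 in CNOT4-AID and no overlap (exact permutation test, p = 0.0286, adjusted 0.0667, n = 4). Protein-coding genes held 45.26% ± 2 and 40.26% ± 2.74, with overlap between the lines (exact permutation p = 0.0571, adjusted 0.0999, n = 4). Both CNOT4-AID libraries of 8 h stood apart with 38.05% and 37.82%. Since TPM has a fixed total, these shares shift every TPM value, and scaling decides how much of the shift is removed. The median log2 difference of all genes was -0.01 with TMM, 0.22 with no scaling and -0.105 with scaling to the ERCC sequences. With no scaling 43.3% of all genes tested were called higher in CNOT1-AID and 2.02% higher in CNOT4-AID, and the list counts given below for no scaling stand against these shares. The calls higher in CNOT1-AID made up 44.6% with TMM, 95.5% (5539 of 5797 calls) with no scaling, 15.4% (82 of 533) with ERCC scaling and 72% (1280 of 1779) with TPM rescaled over protein-coding genes. Without both CNOT4-AID libraries of 8 h, 228 genes passed, 90 higher in CNOT1-AID and 138 higher in CNOT4-AID. The part of library make-up in the gene differences below was not tested.

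**Figure D1:**
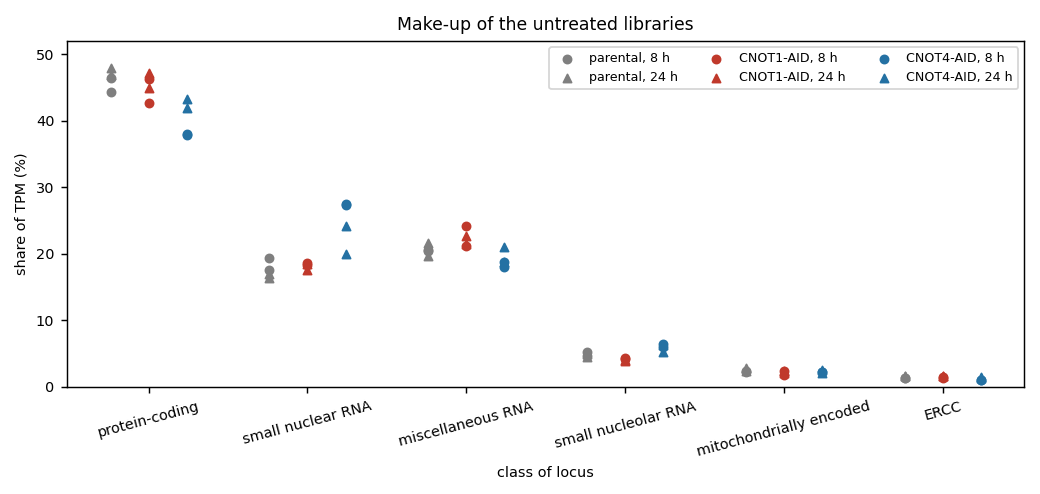
Share of TPM (%, vertical axis) held by 6 classes of loci in each untreated library, with circles for 8 h and triangles for 24 h. The CNOT4-AID libraries lie above all CNOT1-AID libraries for small nuclear and small nucleolar RNA and below them for miscellaneous RNA, and the 2 CNOT4-AID libraries of 8 h are lowest for protein-coding genes (38.05% and 37.82%).

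Markers were checked against the labelled cell type. For colon epithelium 11 of 15 markers averaged 1 TPM or more, and the summed level of the 15 was 4126 to 4313 TPM in CNOT1-AID and 3665 to 4524 TPM in CNOT4-AID. CDX1, an intestinal transcription factor, was listed at 0 in all 8 libraries, and VIL1, LGALS4 and GPA33 had means under 1 TPM in both lines. None of 8 fibroblast, 7 blood or 4 endothelial markers reached a mean of 1 TPM. Of 4 neural markers 2 did, with a summed level of 59.11 to 70.79 TPM in CNOT1-AID and 51.52 to 82.86 TPM in CNOT4-AID.

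The tagged genes themselves were read first. CNOT1 (chromosome 16, GRCh38 58519951 to 58629886, minus strand) stood at 48.97, 60.88, 68.37 and 59.01 TPM in the CNOT1-AID libraries and at 72.16, 74.0, 84.76 and 82.39 TPM in the CNOT4-AID libraries, with a parental mean of 89.68 TPM. Every CNOT1-AID library lay below every CNOT4-AID library. The log2 difference was -0.65 (SE 0.05236, adjusted p = 0.000144, limma), a 1.568-fold lower CNOT1 mRNA level in the line that carries the degron on this gene. Against parental cells CNOT1 was lower in CNOT1-AID (log2 -0.56, adjusted p = 4.09e-06), while in CNOT4-AID the log2 difference was 0.09 (adjusted p = 0.222). In the libraries with 2 h of auxin the gap between the lines was wider, at log2 -1.03 (edgeR, adjusted p = 0.00153).

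CNOT4 mRNA (chromosome 7, 135361795 to 135510127, minus strand) was not lower in the line with the degron on CNOT4. It measured 9.76, 9.02, 10.22 and 9.96 TPM there and 6.9, 9.51, 8.97 and 7.31 TPM in CNOT1-AID, with a parental mean of 8.992 TPM, and the libraries overlapped in TPM. The fitted log2 difference was -0.48 (SE 0.07876, adjusted p = 0.00565), and the call was lost with no scaling, in the 8 h libraries alone and without both CNOT4-AID libraries of 8 h. Of the 12 CCR4-NOT subunits tested, 1 was higher in CNOT1-AID (CNOT6, a catalytic deadenylase subunit) and 3 were higher in CNOT4-AID (CNOT1, CNOT4 and TNKS1BP1), against 9 and 1 with no scaling. The other 8 did not pass: CNOT2, CNOT3, CNOT6L, CNOT7, CNOT8, CNOT9, CNOT10 and CNOT11 had log2 differences between -0.05 (CNOT11, adjusted p = 0.63) and 0.08 (CNOT10, adjusted p = 0.337). With no scaling all 8 were called higher in CNOT1-AID, CNOT3 and CNOT11 after a change of sign to 0.2. The CNOT6 call (log2 0.18, adjusted p = 0.0388) was lost when any library except CNOT1-AID 8 h replicate 1 was left out. TNKS1BP1 (log2 -0.40, adjusted p = 0.00968), a protein of the complex that also binds tankyrase, lost its call with no scaling and in the 8 h libraries alone.

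B2M and IFI30, genes of antigen presentation, and KRT20, a differentiation marker, were among the 12 leaders towards CNOT4-AID. Leaders are the called genes with the largest difference in each direction, taken, as were the genes named from lists, only from those whose libraries did not overlap between the lines, so a lack of overlap in them follows from the choice. B2M, the invariant light chain of MHC class I, was 26.86, 29.73, 34.46 and 29.12 TPM in the CNOT1-AID libraries and 67.76, 59.13, 77.3 and 79.24 TPM in the CNOT4-AID libraries. The lowest CNOT4-AID value was well above the highest CNOT1-AID value. The fitted difference was 2.758-fold (log2 -1.46, SE 0.05788, adjusted p = 2.79e-06). Parental cells had 86.56 TPM on average, and the log2 difference from parental was -1.47 in CNOT1-AID (adjusted p = 3.43e-09) and -0.01 in CNOT4-AID (adjusted p = 0.926). IFI30, a lysosomal thiol reductase of antigen processing, was 3.28, 2.96, 4.51 and 2.65 TPM in CNOT1-AID and 8.8, 7.86, 10.78 and 10.64 TPM in CNOT4-AID (3.061-fold, adjusted p = 0.000138). Of 43 MHC class I and interferon genes tested, 6 were higher in CNOT4-AID and 1 in CNOT1-AID (OAS3, log2 0.18). Of all genes tested, 6.28% and 5.05% were called in these directions. The list counts were 3 and 10 with no scaling. The list median was -0.0921, against -0.0116 for all genes, and whether the list moved as a whole was not tested. The OAS3 call (adjusted p = 0.0487) was lost in 13 alternatives.

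The promoters of B2M and of CTGF are shown because these genes stood out in opposite directions and each has a textbook motif just ahead of its start. They are the 250 bases upstream of the start in RefSeq on GRCh38.p14, read 5′ to 3′ on the gene's strand, with motif matches in capitals. For B2M (chr15:44711267-44711516, plus strand) the capitals are 2 overlapping matches to the core letters of an interferon response element, GAAA, any 2 bases and GAAA again, at -144 and -138. For CTGF (chr6:131951373-131951622, minus strand, CCN2 in RefSeq) they are 3 matches to GGAATG, the letters bound by TEAD factors, at -169, -104 and -95.
B2M: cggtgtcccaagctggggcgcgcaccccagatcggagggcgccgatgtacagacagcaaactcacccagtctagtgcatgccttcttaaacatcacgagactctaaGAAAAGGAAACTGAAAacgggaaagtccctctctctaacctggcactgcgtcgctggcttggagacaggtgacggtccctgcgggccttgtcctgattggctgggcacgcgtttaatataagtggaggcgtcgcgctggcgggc
CTGF: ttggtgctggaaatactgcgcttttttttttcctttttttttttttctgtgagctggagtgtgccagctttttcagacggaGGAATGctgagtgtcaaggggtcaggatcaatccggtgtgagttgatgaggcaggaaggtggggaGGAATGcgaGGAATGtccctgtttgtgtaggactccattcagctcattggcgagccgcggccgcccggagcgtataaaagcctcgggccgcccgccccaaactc
Both strands were searched. The GAAA pair occurred in 1061 of 35116 promoters of this length (3.02%) and GGAATG in 4175 (11.9%). Promoters were matched for 41 of the 83 named genes, and each motif was found in 3 of them: the GAAA pair in B2M, OAS3 and NEO1, and GGAATG in CTGF, ZNF175 and CNOT10. A match describes letters and shows no binding.

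KRT20, a keratin of differentiated colon epithelium, was 13.02, 14.64, 14.81 and 14.49 TPM in CNOT1-AID and 29.13, 28.57, 32.08 and 34.53 TPM in CNOT4-AID. The parental mean was 31.36 TPM, near that of CNOT4-AID. The lines differed by 2.526-fold (log2 -1.34, SE 0.0473, adjusted p = 1.5e-06). Of 8 keratin genes tested, 3 were higher in CNOT4-AID and 0 in CNOT1-AID, and with no scaling 1 and 2. AGR2, a protein disulfide isomerase of mucus-secreting cells, was also higher in CNOT4-AID (251.2 ± 23.3 against 202.8 ± 12.8 TPM, SD, n = 4; log2 -0.55, adjusted p = 0.000643). TSPAN8, a tetraspanin of the gut epithelium, went the other way, with 78.42 ± 4.05 TPM in CNOT1-AID and 45.83 ± 1.99 TPM in CNOT4-AID (log2 0.52, adjusted p = 0.000342). Of 15 genes of colon epithelium and differentiation tested, 4 were higher in CNOT4-AID and 2 in CNOT1-AID. With no scaling the counts were 2 and 4, and after 2 h of auxin 2 and 8.

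SLPI, CXCL5 and CD44, which encode secreted or surface proteins, were also higher in CNOT4-AID. SLPI, a secreted inhibitor of leukocyte proteases, was 4.58 to 6.46 TPM in CNOT1-AID and 14.58 to 19.21 TPM in CNOT4-AID (3.31-fold, log2 -1.73, adjusted p = 1.5e-06). CXCL5, a neutrophil-attracting chemokine, was 44.47 to 65.08 and 88.24 to 122.71 TPM (2.179-fold, adjusted p = 5.14e-06). CD44, the hyaluronan receptor, was 8.6, 11.18, 11.34 and 9.13 TPM in CNOT1-AID and 19.1, 18.85, 19.7 and 21.0 TPM in CNOT4-AID (2.263-fold, adjusted p = 2.06e-05). Parental cells had the lowest CD44 level, 6.992 TPM. Of 33 cytokine, chemokine and NF-kB genes tested, 8 were higher in CNOT4-AID and 3 in CNOT1-AID, against 4 and 14 with no scaling. Of 12 S100 genes, 3 were higher in CNOT4-AID and 1 in CNOT1-AID (S100A5), against 2 and 4 with no scaling. S100A14, a calcium-binding protein of epithelia, was 80.87 ± 4.28 TPM in CNOT1-AID, 122.0 ± 12.6 TPM in CNOT4-AID and 121.1 TPM in parental cells.

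The remaining leaders towards CNOT4-AID had varied roles. EEF1A2, a translation elongation factor found mainly in muscle and neurons, was 2.95 to 3.2 TPM in CNOT1-AID and 7.07 to 9.52 TPM in CNOT4-AID (2.811-fold). PKIB, an inhibitor of protein kinase A, was 2.23 to 2.86 and 5.77 to 6.51 TPM (2.563-fold). UCA1, a long non-coding RNA first described in urothelial cancer, was 2.69 to 3.78 and 5.93 to 11.06 TPM (2.571-fold). GGT1, a surface enzyme that breaks down glutathione, was 6.32 to 8.24 and 11.75 to 18.39 TPM (2.282-fold). RPL23AP2, a pseudogene of RPL23A whose reads cannot be securely told from those of its parent gene, had the largest fitted difference of the 12 (3.871-fold). HES7, a transcriptional repressor of the somite clock, was 4.05 to 5.69 and 7.66 to 10.38 TPM, and its call was lost in the 8 h libraries alone.

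**Figure D2:**
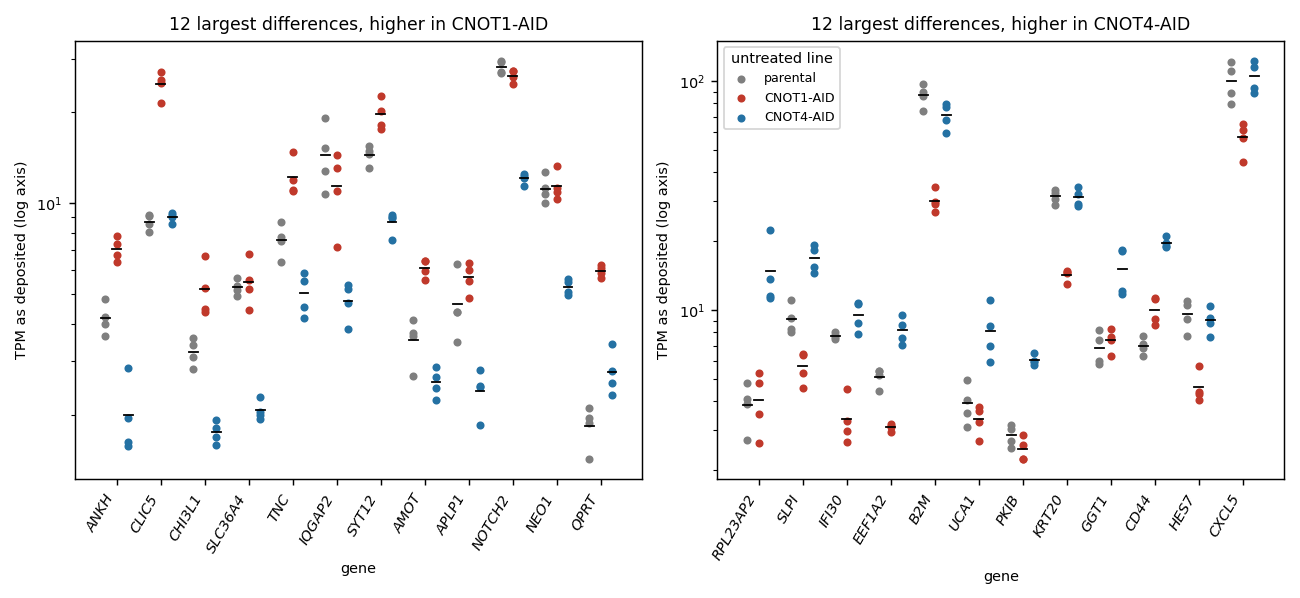
TPM as deposited (log axis) for the 12 genes with the largest difference in each direction, 1 point per untreated library (4 per line) and a bar at each mean. The genes were chosen among those whose CNOT1-AID and CNOT4-AID points do not overlap. The parental points lie near CNOT1-AID for some genes (PKIB, NOTCH2) and near CNOT4-AID for others (B2M, KRT20).

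Towards CNOT1-AID the differences were smaller. CLIC5, a membrane-associated protein of the chloride intracellular channel family, was 21.41, 24.92, 27.16 and 25.49 TPM in CNOT1-AID and 9.32, 9.13, 8.52 and 9.03 TPM in CNOT4-AID, with 8.688 TPM in parental cells. No library of either line came near the other line. The log2 difference was 1.17 (SE 0.0721, 2.247-fold, adjusted p = 2.57e-05). ANKH, a membrane protein needed for pyrophosphate export, was 7.31, 6.38, 7.79 and 6.72 TPM against 1.95, 1.57, 1.62 and 2.85 TPM (2.654-fold, adjusted p = 0.000608), and the parental mean of 4.178 TPM lay between the lines. CHI3L1, a secreted chitinase-like glycoprotein, was 4.37 to 6.67 TPM in CNOT1-AID and 1.59 to 1.92 TPM in CNOT4-AID (2.163-fold, adjusted p = 0.0002). QPRT, an enzyme of NAD synthesis, was 5.68 to 6.25 and 2.32 to 3.43 TPM (1.715-fold), and its call was lost in the 24 h libraries alone and without both CNOT4-AID libraries of 8 h.

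For several of these genes CNOT4-AID was the line away from the parental level. NOTCH2, a receptor of the Notch pathway, was 24.81, 27.49, 27.37 and 26.1 TPM in CNOT1-AID, 12.11, 11.4, 12.35 and 12.48 TPM in CNOT4-AID and 28.32 TPM in parental cells. The log2 difference between the lines was 0.86 (SE 0.04675, adjusted p = 1.73e-05), and against parental it was -0.06 in CNOT1-AID (adjusted p = 0.371) and -0.92 in CNOT4-AID (adjusted p = 2.29e-08). NEO1, the netrin and repulsive guidance receptor neogenin, had 11.45 ± 1.29, 5.295 ± 0.314 and 11.16 TPM in CNOT1-AID, CNOT4-AID and parental cells. SLC36A4, an amino acid transporter, had 5.495 ± 0.976, 2.062 ± 0.158 and 5.268 TPM in the same order. Both contrasts share the parental libraries, and they called 2055 (16.1%) and 1943 (15.2%) of the 12794 genes for CNOT1-AID and CNOT4-AID.

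YAP and TAZ are the transcriptional coactivators of the Hippo pathway. Of 19 of their targets tested, 7 were higher in CNOT1-AID and 1 in CNOT4-AID, with counts of 16 and 0 with no scaling. With ERCC scaling the counts were 2 and 0, beside 82 and 451 of all 12794 genes tested. After 2 h of auxin 4 were higher in CNOT1-AID and 5 in CNOT4-AID, where 7.38% and 4.98% of all genes tested in both sets were called in these directions. CTGF, a matricellular protein, was 11.96, 12.99, 10.02 and 10.0 TPM in CNOT1-AID and 5.97, 6.35, 5.6 and 5.68 TPM in CNOT4-AID. Its lowest CNOT1-AID library was above its highest CNOT4-AID library (log2 0.64, SE 0.06019, adjusted p = 0.000345). CRIM1, a membrane protein that binds bone morphogenetic proteins, was 82.1 ± 8.27 and 44.44 ± 1.1 TPM (log2 0.63, adjusted p = 0.000361), but after 2 h of auxin its log2 difference was -0.11 (edgeR, adjusted p = 0.454). AMOT, an angiomotin that binds YAP, was 5.59 to 6.45 and 2.24 to 2.88 TPM (1.862-fold, adjusted p = 0.000361). Of 12 mesenchymal genes tested, 5 were higher in CNOT1-AID and 1 in CNOT4-AID, or 9 and 0 with no scaling, and after 2 h of auxin 2 and 5. CTGF stands in this list too, as does MYL9, a myosin light chain, with 2.232 ± 0.157 and 0.63 ± 0.0744 TPM (2.152-fold, adjusted p = 0.000199). MYL9 met the filter of 1 TPM through its CNOT1-AID libraries alone. After 2 h of auxin the log2 difference of MYL9 was 0.05 (edgeR, adjusted p = 0.935). TNC, the matrix protein tenascin C, was 11 to 14.82 and 4.17 to 5.86 TPM (1.959-fold, adjusted p = 7.31e-05). The basement membrane collagen COL4A1 went the other way, at 1.595 ± 0.275 and 2.958 ± 0.304 TPM (log2 -0.93, adjusted p = 0.000754, lost in the 8 h libraries alone). In all, 6 of 33 integrin and matrix genes were higher in CNOT1-AID and 5 in CNOT4-AID, against 19 and 2 with no scaling and 1 and 7 after 2 h of auxin.

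Ribosomal protein mRNAs that passed were all higher in CNOT4-AID with TMM scaling: 22 of 81, against 0 higher in CNOT1-AID, and with no scaling 2 and 8. Their summed share of deposited TPM was not higher in CNOT4-AID. It was 6.114% ± 0.0996 in CNOT1-AID and 5.957% ± 0.472 in CNOT4-AID (exact permutation test, p = 0.486, adjusted 0.567, n = 4). RPS2, of the small subunit, was 1885.39, 1911.91, 2088.53 and 1959.79 TPM in CNOT1-AID and 3146.01, 3215.2, 3815.77 and 3930.74 TPM in CNOT4-AID, with 3650 TPM in parental cells. The groups were far apart (2.123-fold, log2 -1.09, SE 0.05911, adjusted p = 1.73e-05), and RPS2 has many pseudogenes that could share its reads. RPL12, of the large subunit, differed less, at 798.9 ± 22.2 and 1011 ± 123 TPM (1.493-fold, adjusted p = 0.00121). FTL, the ferritin light chain, was 268.2 ± 22.9 TPM in CNOT1-AID, 370.0 ± 65.7 TPM in CNOT4-AID and 230.7 TPM in parental cells (log2 -0.70, adjusted p = 0.000138). Of 13 mitochondrially encoded genes, 4 were higher in CNOT4-AID and 0 in CNOT1-AID, with 0 called in either direction under no scaling.

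The list medians of the untreated libraries were set beside those of the libraries with 2 h of auxin, each relative to the median of all genes in its set. The median was -0.16 and then -0.09 for ribosomal protein genes, -0.23 and -0.12 for keratins, -0.08 and -0.13 for MHC class I and interferon genes, and 0.08 and 0.12 for HOX genes. It had the opposite sign after auxin for YAP and TAZ targets (0.12 and -0.13), mesenchymal genes (0.27 and -0.16) and integrin and matrix genes (0.07 and -0.23). The same held for cytokines (-0.09 and 0.34) and for genes of colon epithelium and differentiation (-0.09 and 0.35). Of the 33 cytokine, chemokine and NF-kB genes, 12 were higher in CNOT1-AID and 4 in CNOT4-AID after auxin. Of 20 HOX genes, 6 were higher in CNOT1-AID and 1 in CNOT4-AID in the untreated libraries. With ERCC scaling the HOX counts were 0 and 0, beside 82 and 451 of all 12794 genes tested. Several programmes gave few calls, where 11.3% of all genes tested passed. At that share a short list would hold few calls in any case. No gene passed among 28 of cholesterol synthesis, 13 mismatch repair and growth genes known to be mutated in the line, and 5 cancer-testis antigens. Of 48 mitosis genes 1 passed (MKI67, higher in CNOT1-AID, log2 0.33, lost with ERCC scaling), and of 46 genes of G1/S and replication 3 passed. Of 25 p53 targets 1 passed, whereas after 2 h of auxin 10 were higher in CNOT1-AID and 0 in CNOT4-AID. With no scaling, 36 mitosis genes and 18 cholesterol genes were called higher in CNOT1-AID, beside 43.3% of all genes tested.

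Small RNAs differed in opposite directions in the 2 sets of libraries. Of 46 small nuclear RNA loci tested in the untreated libraries, 19 were higher in CNOT4-AID and 0 in CNOT1-AID, with a median log2 difference of -0.72, and 35 of 127 small nucleolar RNAs were higher in CNOT4-AID, with 0 higher in CNOT1-AID. In the libraries with 2 h of auxin, 0 of 35 small nuclear RNA loci were higher in CNOT4-AID and 19 were higher in CNOT1-AID, with a median of 1.61. Of 77 small nucleolar RNAs tested there, 51 were higher in CNOT1-AID and 1 in CNOT4-AID, with a median of 1.97 against -0.74 in the untreated libraries. Small nuclear RNA loci are near-identical copies, so reads at single loci are uncertain.

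Transcripts higher in CNOT4-AID were shorter and richer in G and C. The median length of the longest annotated transcript was 2738 bases for the protein-coding genes higher in CNOT4-AID (quartiles 1862 and 4438), 4508 bases for those higher in CNOT1-AID (quartiles 2958 and 6548) and 3665 bases for all tested. The median GC content was 54.3%, 48.9% and 48.2% in the same order. In the libraries with 2 h of auxin the lengths were not ordered this way: genes called higher in CNOT4-AID had a median of 4038 bases and 49.6% GC, and those called higher in CNOT1-AID 3745 bases and 50.7% GC. The part of length and GC content in single gene differences was not tested.

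The libraries with 2 h of auxin are separate samples of both lines, measured as counts (18760836 to 20498719 per library). There edgeR called 1760 of 15123 genes (11.6%), 1041 higher in CNOT1-AID and 719 higher in CNOT4-AID. Without replicates 1 and 2 of CNOT1-AID in turn the count was 939 and 914, and without those of CNOT4-AID it was 6655 and 5593, the remaining sample of an arm being taken to vary like the other arm. The CNOT4-AID replicates differed more from each other (chi-square per degree of freedom 18.2) than the CNOT1-AID replicates did (3.02). Of the 1450 genes that differed between untreated lines, 1441 were tested in this set. Of these 1441, 1014 (70.4%) kept their sign, beside 56.9% of all genes tested in both, and 331 (23%) also passed with the same sign, which is 21.4% of the 1548 calls of this set that were tested in both. A further 118 (8.19%) passed with the opposite sign. Of the 74 genes tested here that had differed by at least 2-fold, 35 passed with the same sign and 15 with the opposite sign.

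Of the 12 leaders in each direction, 5 of those higher in CNOT1-AID and 7 of those higher in CNOT4-AID passed again with the same sign. B2M was 15.739 and 14.178 CPM (counts scaled to library size) in CNOT1-AID and 55.174 and 48.858 CPM in CNOT4-AID (log2 -1.81, adjusted p = 0.000591, edgeR). KRT20 was 23.181 and 21.214 against 92.933 and 87.037 CPM (log2 -2.03, adjusted p = 0.000242). CD44 was 24.539 and 20.148 against 93.762 and 96.619 CPM (log2 -2.10, adjusted p = 0.000334). These 3 genes were further apart on the log2 scale than in the untreated libraries. Other leaders that passed were IFI30 (log2 -1.58), UCA1 (-1.61), CXCL5 (-1.25), CLIC5 (1.03), CHI3L1 (1.36) and QPRT (1.48). ANKH (0.81 after 1.41), AMOT (0.51 after 0.90) and GGT1 (-0.82 after -1.19) passed with a smaller fitted difference. Among genes named from lists, RPS2 (-1.20), FTL (-0.99), CTGF (1.17) and TSPAN8 (0.92) passed with the same sign.

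Other leaders were not seen again. SLPI was 8.85 and 7.516 against 8.732 and 11.329 CPM (log2 -0.30, adjusted p = 0.325), and TNC was 46.463 and 43.175 against 53.028 and 48.409 CPM (log2 -0.19, adjusted p = 0.268). NOTCH2 had a log2 difference of 0.18 (adjusted p = 0.185) and EEF1A2 of -0.14 (adjusted p = 0.632). PKIB, a leader, turned round, with 14.18 and 13.219 against 8.488 and 6.138 CPM (log2 0.89, adjusted p = 0.0229). So did S100P, a calcium-binding protein of gut and placenta named from the S100 list. It had log2 0.96 (adjusted p = 0.00815) after -0.82 (adjusted p = 0.000234) in the untreated libraries. Other genes named from lists turned round as well. SLC2A3 went from 0.44 (limma, adjusted p = 0.00108) to -0.96 (edgeR, adjusted p = 0.00147). PVT1 went from 0.44 (limma, adjusted p = 0.0128) to -0.75 (edgeR, adjusted p = 0.0212). Immediate early genes respond to stimuli within minutes. Of 37 tested, 28 were higher in CNOT1-AID and 2 in CNOT4-AID after 2 h of auxin, against 5 and 7 in the untreated libraries (14 and 2 with no scaling). EGR1, an early growth response transcription factor, was 763.727 and 830.933 against 91.225 and 134.348 CPM (log2 2.81, adjusted p = 0.000848), but 32.76 ± 3.99 against 23.3 ± 0.507 TPM in the untreated libraries (log2 0.23, adjusted p = 0.0433, lost in 13 alternatives).

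**Figure D3:**
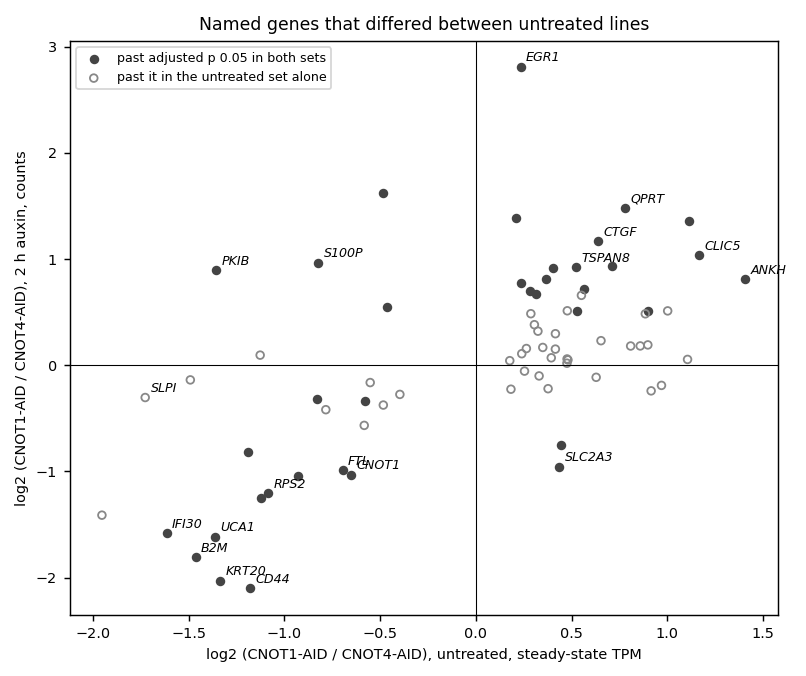
Log2 of CNOT1-AID over CNOT4-AID for the named genes past adjusted p 0.05 in the untreated libraries (horizontal axis), against the same ratio after 2 h of auxin (vertical axis); ZNF714, near 0 in CNOT1-AID, is not drawn. B2M, KRT20 and CD44 lie far into the lower left, PKIB and S100P in the upper left, SLC2A3 in the lower right, and EGR1 at 0.23 and 2.81.

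Differences were not spread evenly over the genome, and chromosome 11 stood apart. It was chosen for description after its values were seen. Its 660 protein-coding genes had a median log2 difference of -0.0956, against medians of -0.0475 to 0.0146 on the 22 other nuclear chromosomes. The 13 genes of the mitochondrial chromosome had a lower median, -0.315, and -0.56 after 2 h of auxin. On chromosome 11 112 genes (17%) were higher in CNOT4-AID and 26 in CNOT1-AID, while elsewhere 560 of 10261 (5.46%) were higher in CNOT4-AID and 529 in CNOT1-AID. In the 8 h libraries alone 4 chromosome 11 genes were higher in CNOT4-AID, and in the 24 h libraries alone 41. In every 10 Mb window of chromosome 11 with at least 10 genes tested, the median was below 0 in both sets of libraries, with 45 of 190 genes higher in CNOT4-AID between 60 and 70 Mb. In the untreated libraries that sign alone shows little. There the median of all protein-coding genes was -0.0132, windows of other chromosomes were often below 0, and those of chromosome 11 ranged from -0.161 to -0.0157. After 2 h of auxin the median was -0.292 against -0.0039 to 0.0889 on the other nuclear chromosomes, and 195 genes of chromosome 11 (29.5%) were higher in CNOT4-AID and 16 in CNOT1-AID.

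Single libraries were then compared. Relative to parental cells, and to the median of the other chromosomes, the chromosome 11 median was 0.0796 to 0.111 in the 4 untreated CNOT4-AID libraries and 0.00125 to 0.0381 in the 4 untreated CNOT1-AID libraries. It was above every other nuclear chromosome in each of the 4 CNOT4-AID libraries, though only just in 24 h replicate 1, where another reached 0.108 beside 0.111 and a further one -0.121. In CNOT1-AID 8 h replicate 1 other chromosomes ranged from -0.167 to 0.112, so shifts of this size were not limited to chromosome 11. It was 0.058 to 0.0905 in the 4 CNOT4-AID libraries with auxin for 8 h or 24 h, and -0.0563 to 0.000489 in those of CNOT1-AID. After 2 h of auxin it was 0.331 and 0.408 in CNOT4-AID and 0.0533 and 0.0535 in CNOT1-AID, while the parental replicates themselves lay at 0.1 and -0.1. In those parental replicates another chromosome reached 0.337 and -0.337, as far from 0 as the lower CNOT4-AID value. The reference in that set was the mean of these 2 replicates, so each pair of mirrored values is a single difference between them. CD44 lies on this chromosome (35138870 to 35232402). GAL, the neuropeptide galanin, was 19.98 ± 2.39 TPM in CNOT1-AID and 26.82 ± 0.78 TPM in CNOT4-AID (log2 -0.66, adjusted p = 0.000234). CSTF3, a subunit of the cleavage stimulation factor, was 20.84 ± 2.94 and 25.62 ± 1.52 TPM (log2 -0.54, adjusted p = 0.00171) and differed by -0.91 after 2 h of auxin (adjusted p = 0.00176). GAL and CSTF3 were chosen after their values were seen. SLC36A4 and SYT12, also on chromosome 11, were among the 12 leaders towards CNOT1-AID.

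**Figure D4:**
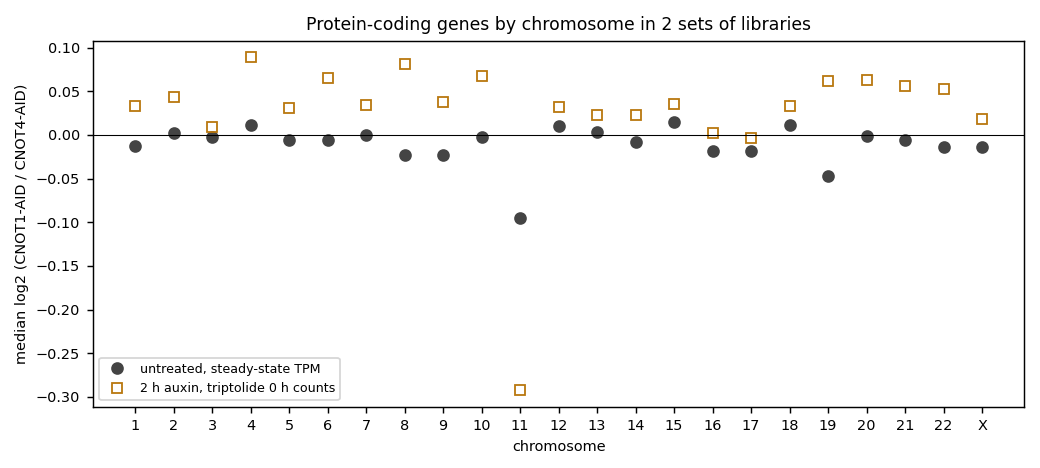
Median log2 of CNOT1-AID over CNOT4-AID over the protein-coding genes of each nuclear chromosome, in the untreated libraries (filled circles, TPM) and after 2 h of auxin (open squares, counts). Of those drawn, chromosome 11 is lowest in both, at -0.0956 and -0.292. The mitochondrial chromosome is not drawn.

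Zinc finger genes of a cluster on chromosome 19 gave a wide gap between the lines. KRAB zinc finger proteins of this kind are DNA-binding repressors, many of which silence transposable elements, and their genes lie in clusters. ZNF714 (21082159 to 21125270, plus strand) was 0.26, 0.29, 0.46 and 0.46 TPM in CNOT1-AID, 4.01, 3.41, 4.03 and 3.07 TPM in CNOT4-AID and 9.24, 9.57, 10.6 and 8.59 TPM in parental cells. The 3 lines did not overlap. Between the tagged lines the log2 difference was -2.41 (SE 0.1334, adjusted p = 1.79e-05), a size that depends on the pseudocount for a gene this low. After 2 h of auxin the CNOT1-AID libraries held 0 and 1 counts and the CNOT4-AID libraries 312 and 204, a ratio of 492 scaled for depth (95% counting interval 87.9 to 19500, which covers counting error only). Its neighbour ZNF431 (21142024 to 21196053) was 0.31 to 0.61 TPM in CNOT1-AID, 1.44 to 2.1 TPM in CNOT4-AID and 7.73 to 8.34 TPM in parental cells (log2 between tagged lines -1.46, adjusted p = 0.000415), with 1 and 0 counts against 152 and 109 after 2 h of auxin.

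The genes on both sides were low in both tagged lines, and they were chosen, as ZNF431 was, after their values were seen. ZNF708, next in order, was 0.11 to 0.48 TPM in CNOT1-AID, 0.49 to 0.65 TPM in CNOT4-AID and 6.13 to 6.91 TPM in parental cells. ZNF493 was 0.1 to 0.2 TPM in CNOT1-AID, 0.03 to 0.1 TPM in CNOT4-AID and 7.09 to 10.17 TPM in parental cells. ZNF430, ZNF429 and ZNF100 were at most 0.2 TPM in every library of both tagged lines and 1.74 to 3.78 TPM in parental cells. In the libraries with 2 h of auxin ZNF430, ZNF493, ZNF429 and ZNF100 held at most 2 counts in any tagged library and 73 to 681 in parental libraries. These 7 genes are those of 17 loci of the cluster that averaged at least 1 TPM in parental cells, and the other 10, among them ZNF738 between ZNF708 and ZNF493, were at most 0.11 TPM in every untreated library. ZNF714 and ZNF431 were the 2 of the 7 that passed the filter, and both were called between the tagged lines. Among tagged libraries they reached 1 TPM only in those of CNOT4-AID. Passing the filter and a gap in that direction are therefore not independent. ZNF708 was not tested, and its closest libraries were 0.48 and 0.49 TPM. After 2 h of auxin ZNF708 held 3 and 1 counts in CNOT1-AID, 93 and 75 in CNOT4-AID and 377 and 773 in parental cells. In that set the gap between the tagged lines was therefore not limited to ZNF714 and ZNF431. These genes are close copies of one another, so reads may be assigned to the wrong member, and values well under 1 TPM are uncertain. Zinc finger genes of chromosome 19 did not share the pattern as a group: of 131 tested, 3 were higher in CNOT1-AID and 7 in CNOT4-AID, against 33 and 3 with no scaling. After 2 h of auxin 33 of them were higher in CNOT1-AID and 4 in CNOT4-AID (median log2 0.325), the opposite direction to ZNF714 and ZNF431.

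**Figure D5:**
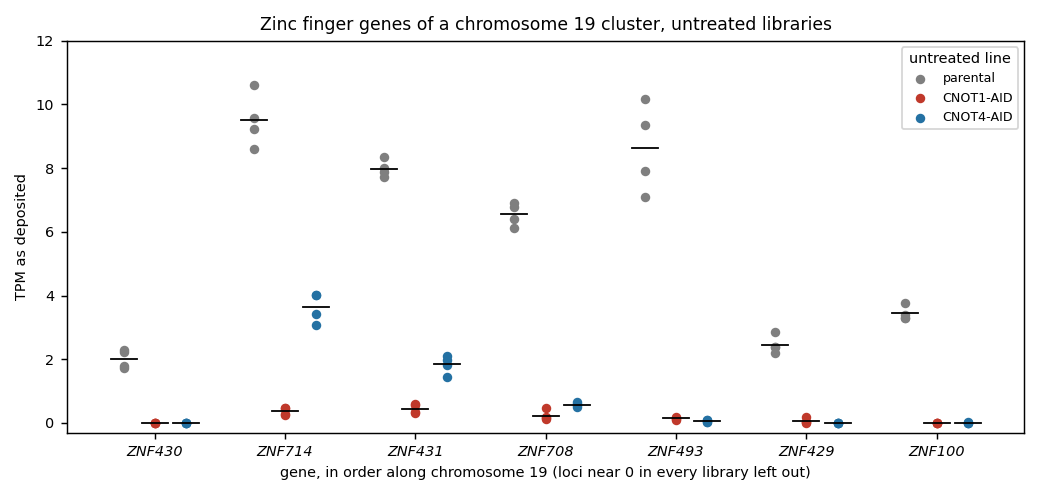
TPM as deposited in each untreated library (4 per line, bar at the mean) for 7 zinc finger genes of a chromosome 19 cluster, chosen for expression in parental cells and drawn in order along the chromosome. Loci near 0 in every library are left out. CNOT1-AID is near 0 throughout, and CNOT4-AID keeps intermediate levels of ZNF714 and ZNF431.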

How the data were processed

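Total RNA libraries of DLD-1 lines were compared. Per the submitters' processing notes the authors used hg38 (GRCh38), STAR 2.5.1b, RSEM, featureCounts, SAMtools and DESeq2; the table each one made is not given in the sources used here. Steady-state values were deposited by the authors as TPM, whose depth is unknown. The deposited triptolide-set values are raw counts. All 58721 gene identifiers were found in GENCODE 29. TPM were scaled with TMM (edgeR 4.0.16), and log2 of scaled TPM plus 0.5 was fitted with limma 3.58.1 (trend, robust) for genes with at least 1 TPM in at least 4 of the 8 libraries, with 5 residual degrees of freedom. Counts were fitted with edgeR (robust quasi-likelihood, TMM, filterByExpr) on 2 against 2 libraries. R was 4.3.3 and p-values were adjusted over all genes tested (Benjamini-Hochberg, 0.05). Parental contrasts came from 12 untreated libraries.

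Data were simulated for the untreated comparison (12794 genes), with 100 genes changed at each size. There limma recovered 93% of genes changed by 1 on the log2 scale and 65% of those changed by 0.5, with 10 false calls. For the simulated count comparison (14837 genes), edgeR recovered 72% of 100 genes changed by 1 and 97% of 99 changed by 2, with 18 false calls.

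The members, gene lists and chromosome description were chosen with earlier results of these data known. Named genes are the 12 largest differences in each direction among called genes with at least 5 TPM in the higher line and no overlap between the lines, up to 2 per list and direction by the same rule at 2 TPM, and all CCR4-NOT subunits. Clone names, small RNA and histone symbols, ERCC sequences, XIST and Y-linked genes were passed over. Alternatives covered scaling, pseudocount, filters, left-out libraries, single times, a replicate block and larger fits, and the fit without both CNOT4-AID libraries of 8 h was added after seeing the data.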

Additional observations from a re-analysis of the deposited data

Results flagged for a closer look

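In 5 of the 166 sets of 4 libraries examined (83 named genes in 2 lines), 1 library lay far from the other 3 by Dixon's criterion, which chance alone meets in about 1 set in 20. SYT12 was 7.58 TPM in CNOT4-AID 24 h replicate 2, below 8.96 to 9.12 TPM in the others. CRIM1 was 69.77 TPM in CNOT1-AID 8 h replicate 1, below 85.07 to 87.15 TPM. FRAS1 was 7.67 TPM in CNOT4-AID 24 h replicate 1, above 6.71 to 6.86 TPM. SLC2A3 was 69.9 TPM in CNOT1-AID 8 h replicate 2, above 60.86 to 61.6 TPM. TNRC6C was 6.24 TPM in CNOT4-AID 8 h replicate 1, above 5.54 to 5.63 TPM.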

How the results depend on the processing

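The untreated count of 1450 (646 higher in CNOT1-AID, 804 higher in CNOT4-AID, 80 at least 2-fold) stayed within 1.5 times with median-of-ratios scaling, other pseudocounts, a weaker filter, no robust option and 12 libraries of 3 lines. It was 5797 (5539 and 258) with no scaling, 533 (82 and 451) with ERCC scaling, 1779 (1280 and 499) over protein-coding genes, 953 (424 and 529) with no filter and 2726 (1230 and 1496) with all 24 steady-state libraries. It was 162 (46 and 116) at 8 h alone, 542 (235 and 307) at 24 h alone, and 228 (90 and 138) without both CNOT4-AID libraries of 8 h. At 5 TPM, 42 genes were at least 2-fold apart. With each library left out in turn the counts were 650 to 2410 (268 to 1060 and 382 to 1350), 63 to 87 at least 2-fold, 1 to 100 for the interaction and 914 to 6655 in the count set. That set gave 1541 with DESeq2, 2325 with ERCC scaling, 2869 with no filter and 2338 in the larger fit.

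Replicate numbers did not pair the samples (correlation of deviations -0.16 at 8 h, -0.041 at 24 h and 0.0592 in the count set). With a replicate block the untreated count was 704 (292 and 412), the interaction 0 and the count set 2918, and with the 8 h numbers crossed, an alternative added after seeing the data, the untreated count was 1037.

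The chromosome 11 median minus that of other chromosomes was -0.0865, from -0.0971 to -0.076 with each library left out, -0.052 with no filter and -0.0664 at 8 h alone. Of 75 called named genes, 32 passed in every alternative in which they were tested, 58 with each library left out, and none turned round. The 8 CCR4-NOT subunits not called were all called higher in CNOT1-AID with no scaling, CNOT3 and CNOT11 after a change of sign to 0.2. The causes were not tested. Depth behind TPM is unknown, so no counting error can be given for low TPM.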

Other observations

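No gene was found that one line expressed steadily and the other lacked by a strict rule. By that rule (under 0.1 TPM in every library of 1 line and a mean of at least 1 TPM in the other) 60 loci qualified, 32 in CNOT1-AID and 28 in CNOT4-AID, 0 of them protein-coding. Of the 60, 43 were above 0 in a single library and 0 were above 0 in all 4 libraries of the expressing line.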
